A study of Mus musculus with 60 samples.

Results

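The genes Hoxb1 to Hoxb9 are 9 neighbouring homeobox genes on mouse chromosome 11. They were taken by symbol from the 55227 gene rows that carry a symbol in the deposited tables, and all 9 were present. RNA was sequenced from mESCs of the E14JU line in which POLE4, a histone-fold subunit of DNA polymerase epsilon, carries a degron tag (POLE4-dTAG), with MCM2 either WT or mutated at its histone-binding site (MCM2-2A). In each background the cells received DMSO (Ctrl and Ctrl MCM2-2A) or 1 µM dTAG, which leads to removal of the tagged protein (dPOLE4 and dPOLE4 MCM2-2A), for 24 h in serum with LIF (T0), and then RA without LIF for 12 h (T12), 24 h (T24) or 60 h (T60). A second experiment treated the same 4 kinds of cells for 96 h without RA. Each of the 20 groups had 3 libraries, 60 in all. Every group, Ctrl included, carries the tagged POLE4, and each background is 1 clone, so that effects of MCM2-2A and of the clone cannot be told apart.

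Hox genes encode homeodomain transcription factors that give cells their position along the head-to-tail axis of the embryo. Along a cluster, genes at the 3′ end are as a rule switched on first and in the most anterior tissue, and genes toward the 5′ end follow later and more posteriorly. RA binds heterodimers of RAR and RXR receptors on response elements in DNA, several of which lie in and beside Hox clusters, and its addition to mESCs is a standard way to switch Hox genes on. The questions asked of the 9 genes were when each appeared under RA, what POLE4 depletion did to its level within each background, and how the MCM2-2A line differed from the WT line.

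All 9 genes lie on the plus strand of chromosome 11 in the mm10 build, with Hoxb9 nearest the low-coordinate 5′ end and Hoxb1 at the 3′ end. Of their promoters, the RefSeq table used here held those of Hoxb8, Hoxb4 and Hoxb1 among 32851 windows. These 3 are shown because no other member had a window. They lie toward the 5′ end, in the middle and at the 3′ end of the cluster, the positions that the time course below is read along. Each sequence is the 250 bases before the RefSeq start (GRCm38.p6, plus strand), at chr11:96281655-96281904, chr11:96318017-96318266 and chr11:96365508-96365757. Capitals mark matches, on either strand, to the receptor half-sites AGGTCA and GGGTCA, the Pbx-Hox site TGATNNAT, the TATA box TATAAA and the CCAAT box CCAAT.
Hoxb8: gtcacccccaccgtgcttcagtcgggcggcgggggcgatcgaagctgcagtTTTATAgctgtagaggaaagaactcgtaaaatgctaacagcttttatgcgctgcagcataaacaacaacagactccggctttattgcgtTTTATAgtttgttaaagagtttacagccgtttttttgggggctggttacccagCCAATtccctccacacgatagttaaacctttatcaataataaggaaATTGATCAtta
Hoxb4: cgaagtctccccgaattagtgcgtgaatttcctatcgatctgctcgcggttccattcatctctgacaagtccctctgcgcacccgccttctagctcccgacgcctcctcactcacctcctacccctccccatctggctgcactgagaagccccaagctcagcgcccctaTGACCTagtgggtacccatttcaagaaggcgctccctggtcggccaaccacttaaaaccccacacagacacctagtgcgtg
Hoxb1: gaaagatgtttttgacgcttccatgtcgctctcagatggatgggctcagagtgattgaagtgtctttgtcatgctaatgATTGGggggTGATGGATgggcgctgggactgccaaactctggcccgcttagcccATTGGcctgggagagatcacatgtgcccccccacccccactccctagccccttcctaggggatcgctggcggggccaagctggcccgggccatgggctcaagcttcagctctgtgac
The letters AGGTCA occurred once, on the minus strand 81 bases before the Hoxb4 start, and are found in 14.02% of all windows. GGGTCA, found in 11.65% of windows, had no match in the 3, and neither had a pair of AGGTCA half-sites 5 bases apart, which 0.01% of windows hold. TGATNNAT, the composite site of HOX proteins with their PBX partners and present in 7.68% of windows, occurred in the Hoxb8 window 11 bases before the start and in the Hoxb1 window 162 bases before it. TATAAA occurred 2 times on the minus strand of the Hoxb8 window (12.37% of windows hold it). CCAAT occurred once for Hoxb8 and 2 times for Hoxb1 (33.85% of windows). The windows held 12, 14 and 7 CpG dinucleotides for Hoxb8, Hoxb4 and Hoxb1, against a median of 6.0 over all windows.

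Sequencing depth, as the total count of a library, ranged from 10461077 to 46609151 over 48 libraries with 24 h pretreatment and from 7126100 to 23598266 over the 12 treated for 96 h. Levels are given as CPM, the count scaled to the TMM-adjusted size of the library. Ranges of libraries are compared for single genes as a description, and the share of all features with ranges apart was not counted. Pole4 RNA did not check the depletion, which acts on the protein (52.5 CPM in Ctrl and 52.4 CPM in dPOLE4 at T0). All 8 markers of embryonic stem cells, Pou5f1 and Nanog among them, were above 1 CPM in every group, as the cell type in the labels implies. In the MCM2-2A line, genes of chromosome 11 ran lower as a whole: their median log2 fold change to Ctrl lay between -0.55 and -0.48 over the 5 comparisons. A gene was called DE when edgeR's quasi-likelihood test gave a Benjamini-Hochberg adjusted p below 0.01 over all features and a log2 fold change above 0.58 in size. Mcm2 RNA was called lower in Ctrl MCM2-2A than in Ctrl at T0 (-0.70), T12 (-0.85), T24 (-0.89), T60 (-0.82) and 96 h (-0.81). Pole4 RNA was called lower there at T0 (-0.68), T12 (-0.75), T24 (-0.61) and 96 h (-0.95), and not at T60 (-0.22). Their part in the Hoxb levels was not tested. In these bulk libraries, fewer cells expressing a gene and less RNA per cell cannot be told apart.

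Before RA the cluster was nearly silent apart from Hoxb9. At T0 the 9 genes together made up 3.41 ± 0.34 CPM in Ctrl, 3.55 ± 0.405 CPM in dPOLE4, 4.55 ± 1.38 CPM in Ctrl MCM2-2A and 5.38 ± 0.392 CPM in dPOLE4 MCM2-2A (mean ± SD, n = 3 each, here and below). Hoxb9, whose product helps to pattern the thoracic skeleton, made up 69.2% of the cluster per kilobase of exon in Ctrl, with counts of 43, 37 and 53 in the libraries and 2.41 ± 0.287 CPM. The next in that order was Hoxb4 with 5, 13 and 5 counts, 0.426 ± 0.274 CPM. Hoxb5 had no count in any Ctrl library at T0, and the other 6 genes had between 0 and 4 counts per library. No Hoxb9 range at T0 stood apart between the groups compared, and the log2 fold changes were 0.08 for dPOLE4 against Ctrl, 0.26 for dPOLE4 MCM2-2A against Ctrl MCM2-2A and 0.04 for Ctrl MCM2-2A against Ctrl. In Ctrl MCM2-2A, Hoxb4 had counts of 20, 7 and 21 at T0, and its log2 fold change to Ctrl of 0.60 ± 0.46 was not called. Of the 9 genes, 1 passed the expression filter for dPOLE4 against Ctrl at T0 and 2 passed it in each of the other T0 comparisons, and by edgeR none was called, while none had an unadjusted p under 0.05 and DESeq2 called 0. Over all features, 0%, 0.0715% and 18.9% were called in these 3 comparisons.

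After 96 h without RA the cluster was still low, and Hoxb9 again led it. The sum over the 9 genes was 3.90 ± 0.957 CPM in Ctrl, 5.85 ± 1.06 in dPOLE4, 5.19 ± 0.966 in Ctrl MCM2-2A and 6.88 ± 0.418 in dPOLE4 MCM2-2A. Hoxb9 was at 3.71, 2.89 and 2.50 CPM in the Ctrl libraries and at 5.68, 3.8 and 4.83 CPM in dPOLE4. It was at 2.92, 3.42 and 2.57 CPM in Ctrl MCM2-2A and at 4.54, 5.21 and 4.23 CPM in dPOLE4 MCM2-2A. In both backgrounds every depleted library was above every control library. The log2 fold changes, 0.65 ± 0.21 (adjusted p = 0.251) and 0.66 ± 0.19 (adjusted p = 0.183), did not pass the test, and neither did Hoxb9 in Ctrl MCM2-2A against Ctrl (-0.02 ± 0.23). edgeR and DESeq2 called none of the 1, 2 and 1 members that passed the filter in these 3 comparisons, in which 1, 1 and 0 had an unadjusted p under 0.05. The shares called over all features were 0%, 0.304% and 15.7%.

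Hoxb1 (ENSMUSG00000018973, chr11:96365752-96368256) sets the identity of the fourth rhombomere of the hindbrain and is a direct target of the RA receptors. In Ctrl it stood at 0.162 ± 0.0918 CPM at T0. The 3 libraries held 22.2, 25.8 and 22.6 CPM at T12, 93.2, 104 and 94.4 CPM at T24 and 88.1, 69.4 and 63.1 CPM at T60. Its level was thus highest at T24, with every T60 library below every T24 library. The dPOLE4 libraries averaged 16.3 ± 0.0621 CPM at T12, 78.2 ± 15.3 CPM at T24 and 75.7 ± 1.98 CPM at T60. In Ctrl MCM2-2A they averaged 20.8 ± 3.11 CPM at T12, 80.5 ± 2.36 CPM at T24 and 56.3 ± 7.89 CPM at T60. The dPOLE4 MCM2-2A libraries were lowest on average, with 12.4 ± 1.86 CPM at T12, 44.8 ± 3.84 CPM at T24 and 40.7 ± 5.22 CPM at T60. Hoxb2 (ENSMUSG00000075588, chr11:96350525-96354012), which also acts in the hindbrain, had 4 counts in the T0 libraries of Ctrl together. It then reached 12.9, 19.8 and 15.2 CPM at T12, 51.9, 58.2 and 58.1 CPM at T24 and 84.3, 74.1 and 74.8 CPM at T60, so each time lay above the one before with no overlap. Means in dPOLE4 were 10.8 ± 0.159 CPM at T12, 46.5 ± 8.90 CPM at T24 and 69.4 ± 3.28 CPM at T60. Those in Ctrl MCM2-2A were 22.1 ± 2.95 CPM at T12, 52.2 ± 4.02 CPM at T24 and 53.3 ± 5.32 CPM at T60, and those in dPOLE4 MCM2-2A were 9.37 ± 1.5 CPM at T12, 24.1 ± 2.30 CPM at T24 and 33.9 ± 4.01 CPM at T60. In the MCM2-2A background the depleted cells held less Hoxb2 RNA than their controls in every library at every RA time.

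Hoxb3 (ENSMUSG00000048763, chr11:96323326-96347930) patterns the posterior hindbrain and the organs of the pharyngeal arches. Its Ctrl libraries held 6.62, 7.40 and 6.32 CPM at T12, 17.3, 20.8 and 19.4 CPM at T24 and 44.7, 45.9 and 43.9 CPM at T60. Each step lay clear of the one before. In dPOLE4 the means were 4.87 ± 1.46 CPM at T12, 16.4 ± 2.48 CPM at T24 and 44.8 ± 1.68 CPM at T60, in Ctrl MCM2-2A 8.76 ± 0.17 CPM at T12, 18.3 ± 2.92 CPM at T24 and 25.7 ± 1.96 CPM at T60, and in dPOLE4 MCM2-2A 6.11 ± 0.474 CPM at T12, 11.9 ± 0.139 CPM at T24 and 17.1 ± 2.47 CPM at T60. The antisense gene Hoxb3os overlaps 2250 exon bases (52.9%) of Hoxb3 and 953 (27.3%) of Hoxb2. It had 3.51 ± 1.07 CPM at T12 and 9.99 ± 1.01 CPM at T60 in Ctrl. The strand setting of the counting was not given in the sources used here, and whether some reads of these 3 genes were shared was not tested. Hoxb4 (ENSMUSG00000038692, chr11:96318267-96321638), expressed up to the posterior hindbrain and also used to expand blood stem cells, held 21.7, 31.0 and 22.4 CPM at T12, 51.0, 56.8 and 51.1 CPM at T24 and 63.4, 60.9 and 59.6 CPM at T60 in Ctrl. It was therefore nearest of all 9 genes to its final level after 12 h. The dPOLE4 means were 18.9 ± 2.2 CPM at T12, 49.3 ± 7.38 CPM at T24 and 55.7 ± 1.98 CPM at T60. Ctrl MCM2-2A had 21.7 ± 3.10 CPM at T12, 38.8 ± 3.44 CPM at T24 and 27.9 ± 1.74 CPM at T60, so that it was highest at T24 there. In dPOLE4 MCM2-2A the means were 15.5 ± 0.992 CPM at T12, 22.3 ± 1.11 CPM at T24 and 22.2 ± 2.74 CPM at T60.

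Hoxb5 (ENSMUSG00000038700, chr11:96303336-96306121) acts in neural crest of the gut and in the developing lung. It went from no count at T0 to 6.18, 9.92 and 7.91 CPM at T12, 20.1, 27.2 and 29.4 CPM at T24 and 28.8, 25.4 and 22.7 CPM at T60 in Ctrl. The last 2 times overlapped. Mean levels were 5.88 ± 1.88 CPM at T12, 20.2 ± 2.11 CPM at T24 and 20.7 ± 2.29 CPM at T60 in dPOLE4, 9.27 ± 0.211 CPM at T12, 20.1 ± 2.03 CPM at T24 and 14.0 ± 0.941 CPM at T60 in Ctrl MCM2-2A and 4.61 ± 1.25 CPM at T12, 9.91 ± 1.75 CPM at T24 and 7.06 ± 1.69 CPM at T60 in dPOLE4 MCM2-2A. In both MCM2-2A groups the mean was higher at T24 than at T60. Hoxb6 (ENSMUSG00000000690, chr11:96292476-96301569), a gene of trunk mesoderm and spinal cord, had 2.07, 2.90 and 2.33 CPM at T12, 12.7, 16.4 and 17.5 CPM at T24 and 23.6, 19.7 and 20.3 CPM at T60. The means were 1.31 ± 0.0843 CPM at T12, 11.8 ± 1.03 CPM at T24 and 19.7 ± 0.797 CPM at T60 in dPOLE4, 4.61 ± 0.901 CPM at T12, 14.6 ± 1.08 CPM at T24 and 13.1 ± 1.39 CPM at T60 in Ctrl MCM2-2A and 2.22 ± 0.642 CPM at T12, 7.53 ± 0.124 CPM at T24 and 7.17 ± 0.587 CPM at T60 in dPOLE4 MCM2-2A. Hoxb7 (ENSMUSG00000038721, chr11:96286623-96290162), which takes part in patterning of the trunk, was the lowest member per kilobase at every RA time in Ctrl. Its Ctrl libraries held 0.916, 1.05 and 1.02 CPM at T12, 3.57, 3.93 and 3.77 CPM at T24 and 4.14, 3.93 and 3.55 CPM at T60. Other means of Hoxb7 were 1.09 ± 0.365 CPM at T12, 2.7 ± 0.417 CPM at T24 and 3.96 ± 0.399 CPM at T60 in dPOLE4, 2.30 ± 0.839 CPM at T12, 5.18 ± 0.729 CPM at T24 and 4.29 ± 0.0969 CPM at T60 in Ctrl MCM2-2A and 1.61 ± 0.441 CPM at T12, 3.16 ± 0.103 CPM at T24 and 2.72 ± 0.659 CPM at T60 in dPOLE4 MCM2-2A.

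Hoxb8 (ENSMUSG00000056648, chr11:96281905-96285315) acts in the spinal cord and in myeloid precursor cells. In Ctrl it had 2.55, 2.65 and 3.02 CPM at T12, 23.7, 23.4 and 24.7 CPM at T24 and 59.5, 48.1 and 46.3 CPM at T60. Little of its final level was therefore present after 12 h. The dPOLE4 means were 2.05 ± 0.373 CPM at T12, 17.2 ± 2.74 CPM at T24 and 37.1 ± 1.28 CPM at T60. Ctrl MCM2-2A already had 10.2, 8.22 and 12.5 CPM at T12, then 33.5 ± 1.44 CPM at T24 and 27.9 ± 4.50 CPM at T60. Every T12 library of that line was above every Ctrl library. In dPOLE4 MCM2-2A the means were 7.24 ± 0.584 CPM at T12, 16.9 ± 1.30 CPM at T24 and 13.7 ± 2.76 CPM at T60. Hoxb9 (ENSMUSG00000020875, chr11:96271457-96276595) started from its T0 level and held 4.79, 4.87 and 4.38 CPM at T12, 24.8, 24.5 and 24.0 CPM at T24 and 65.8, 58.0 and 53.9 CPM at T60 in Ctrl. Each time was clear of the one before. Its means were 5.17 ± 0.411 CPM at T12, 18.2 ± 0.567 CPM at T24 and 54.3 ± 4.04 CPM at T60 in dPOLE4, 9.27 ± 1.18 CPM at T12, 30.1 ± 1.49 CPM at T24 and 35.5 ± 1.94 CPM at T60 in Ctrl MCM2-2A and 7.32 ± 1.09 CPM at T12, 17.4 ± 1.51 CPM at T24 and 23.1 ± 1.47 CPM at T60 in dPOLE4 MCM2-2A.

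**Figure D1:**
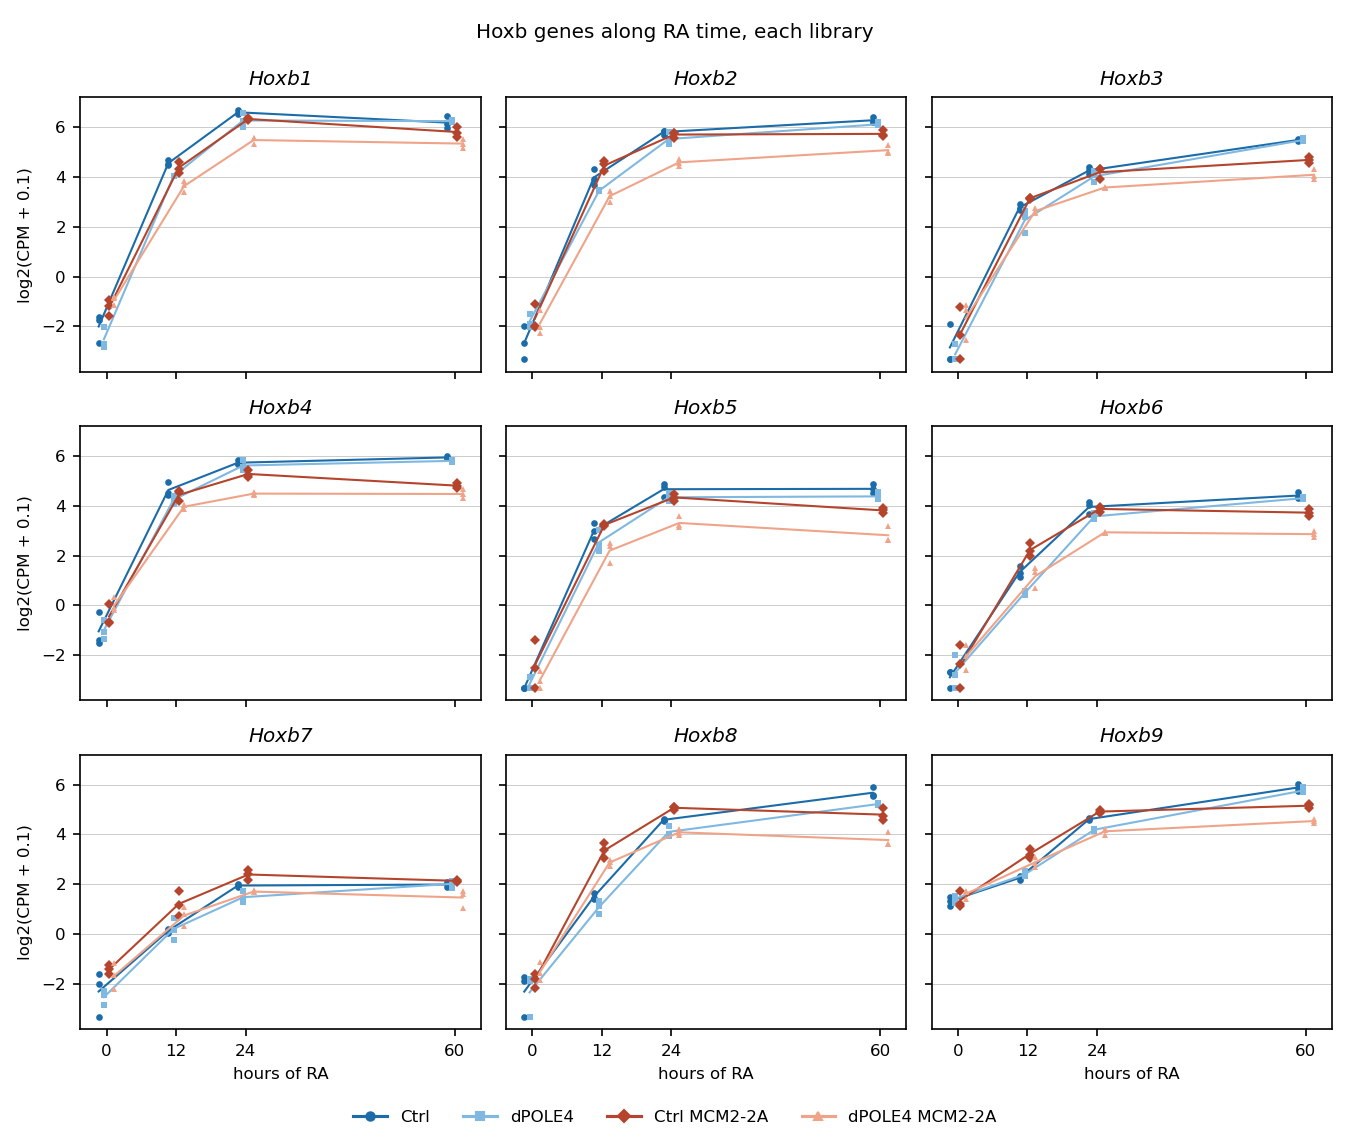
Level of each of the 9 genes as log2(CPM + 0.1) against hours of RA, to scale, with 1 panel per gene. Points are single libraries, lines join the means of the log values, and colours give the 4 conditions. Hoxb9 starts above the others at 0 h, and in Ctrl 6 of 9 genes had 72.2% or more of their T60 level by 24 h.

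The first 12 h of RA raised all 9 genes in all 4 conditions. In Ctrl the log2 fold changes of T12 against T0 ran from 0.96 for Hoxb9 to 7.11 for Hoxb1 among the 5 genes with at least 5 counts at T0, and all 9 were called. Of the genes, 8 entered this comparison only through the T12 libraries, because they were almost absent at T0, so their passing is no independent result. As ratios of mean CPM in Ctrl, Hoxb1 was 145-fold higher at T12 than at T0, Hoxb4 58.8-fold, Hoxb8 22.0-fold, Hoxb7 7.89-fold and Hoxb9 1.94-fold. Hoxb5, with no count at T0, was at least 147-fold higher against a floor of 3 counts over the group. Hoxb2 rests on 4 T0 counts over the group, and Hoxb3 and Hoxb6, with 3 and 2, are given no fold. The same 9 of 9 were called in dPOLE4, Ctrl MCM2-2A and dPOLE4 MCM2-2A. Among T0 libraries, 1 member passed the filter for dPOLE4 against Ctrl and 2 for dPOLE4 MCM2-2A against Ctrl MCM2-2A. Most members thus entered through the T12 libraries in these conditions too, so the repeated calls are no independent result. Over all features, 7.24% were called higher at this step in Ctrl, 7.18% in dPOLE4, 5.2% in Ctrl MCM2-2A and 4.3% in dPOLE4 MCM2-2A.

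From T12 to T24, Hoxb8, Hoxb6 and Hoxb9 rose most in Ctrl. The log2 fold change in Ctrl was 3.13 ± 0.10 for Hoxb8, 2.69 ± 0.16 for Hoxb6 and 2.38 ± 0.09 for Hoxb9. It was 2.05 ± 0.07 for Hoxb1, 1.83 ± 0.12 for Hoxb2, 1.5 ± 0.10 for Hoxb3 and 1.09 ± 0.12 for Hoxb4, with Hoxb5 at 1.70 and Hoxb7 at 1.92. All 9 were called in Ctrl, in dPOLE4 and in Ctrl MCM2-2A, and the T24 and T12 libraries did not overlap for any gene in any condition. In dPOLE4 MCM2-2A, 8 of 9 were called, the other being Hoxb4 at 0.53 ± 0.09 (adjusted p = 0.00105), whose log2 fold change was under the limit of 0.58. Hoxb8 showed the widest spread between conditions at this step, with 3.08 in dPOLE4, 1.72 in Ctrl MCM2-2A and 1.21 in dPOLE4 MCM2-2A. Hoxb7, the gene with the fewest counts, lost its call when single libraries were left out: in dPOLE4 without T24 replicate 1, T12 replicate 1 or T12 replicate 2 (adjusted p 0.0121 to 0.0207), and in dPOLE4 MCM2-2A without any one of T24 replicates 1 to 3 or T12 replicates 1 and 2 (0.0108 to 0.0238). The shares of all features called higher were 3.75% in Ctrl, 3.39% in dPOLE4, 5.52% in Ctrl MCM2-2A and 4.6% in dPOLE4 MCM2-2A.

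From T24 to T60, 3 of 9 members were called higher in Ctrl, 4 of 9 in dPOLE4 and none in either MCM2-2A group. With 15.4% to 19.8% of all features called higher at this step, such counts out of 9 do not set the members apart. The difference between the lines was not itself tested at this step. In Ctrl, Hoxb3, Hoxb8 and Hoxb9 rose, with log2 fold changes of 1.24 ± 0.08 (adjusted p = 6.16e-09), 1.12 ± 0.09 (adjusted p = 3.89e-08) and 1.30 ± 0.08 (adjusted p = 2.18e-09). Hoxb1 was at -0.38 ± 0.09 and Hoxb5 at 0.04 ± 0.13, neither called. In dPOLE4 the same 3 genes rose, by 1.44, 1.11 and 1.59, together with Hoxb6 at 0.74 ± 0.09 (adjusted p = 1.46e-05). Hoxb2, at 0.58 ± 0.11 in dPOLE4, was just under the limit of size and was also called without dPOLE4 T60 replicate 1 (0.61) or 2 (0.60) or T24 replicate 2 (0.73). Called counts were thus 3 of 9 and 4 of 9, where 19.8% and 17.9% of all features were called higher. In Ctrl MCM2-2A none of the 9 was called by edgeR, although 6 had an unadjusted p under 0.05, and DESeq2 called 0 as well. Their log2 fold changes ran from -0.51 for Hoxb5 to 0.49 for Hoxb3, and 6 of 9 were negative. Without Ctrl MCM2-2A T60 replicate 1, Hoxb1 was called lower at -0.61. In dPOLE4 MCM2-2A edgeR and DESeq2 both called 0 of 9 and 4 had an unadjusted p under 0.05, with values from -0.50 for Hoxb5 to 0.53 for Hoxb3. There, Hoxb5 was called lower without dPOLE4 MCM2-2A T60 replicate 1 (-0.71) and Hoxb3 higher without replicate 2 (0.60). The features called higher at this step made up 18.2% and 15.4% of those tested in the MCM2-2A groups. Embryonic stem cell markers moved with this pattern: their sum over all 8 was 184 to 211 CPM in Ctrl, 197 to 222 in dPOLE4, 417 to 533 in Ctrl MCM2-2A and 563 to 746 in dPOLE4 MCM2-2A at T60, against 3017 to 3164 in Ctrl at T0, and their part in the Hoxb levels was not tested.

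Of the 9 genes, the 2 nearest the 5′ end, Hoxb8 and Hoxb9, had the smallest T12 shares of the T60 level in Ctrl. The order among the others in Ctrl did not follow their place in the row. In no other condition did these 2 genes have the smallest 2 shares. Hoxb6 (6.66%) lay below Hoxb9 (9.51%) in dPOLE4, and Hoxb3 (34.1%) lay below Hoxb8 (36.9%) in Ctrl MCM2-2A. In dPOLE4 MCM2-2A, Hoxb2 (27.7%) lay below Hoxb9 (31.6%) and Hoxb8 (52.6%). Hoxb13, a Hoxb gene outside the 9, held 0.324, 3.96, 2.40 and 9.35 CPM in Ctrl at T0, T12, T24 and T60. After 12 h Hoxb4 stood at 40.8% of its T60 level, Hoxb1 at 32.0%, Hoxb5 at 31.2% and Hoxb7 at 25.7%. Hoxb2 was at 20.5%, Hoxb3 at 15.1%, Hoxb6 at 11.5%, Hoxb9 at 7.90% and Hoxb8 at 5.34%. Hoxb2 and Hoxb3 lay below Hoxb4, Hoxb5 and Hoxb7, which are nearer the 5′ end. These shares are ratios of means with no test. The median share over the 9 genes at T12 was 20.5% in Ctrl, 15.6% in dPOLE4, 37.0% in Ctrl MCM2-2A and 35.8% in dPOLE4 MCM2-2A. At T24 it was 73.1%, 67.1%, 120.2% and 105% in the same order. In Ctrl and in dPOLE4, 8 of 9 genes had their highest mean at T60, the exception being Hoxb1. In both MCM2-2A groups only Hoxb2, Hoxb3 and Hoxb9 did, and the other 6 had their highest mean at T24. None of these falls to T60 was called with all libraries in the fit. The T24 and T60 libraries of all 6 overlapped in dPOLE4 MCM2-2A, as did those of Hoxb6 and Hoxb8 in Ctrl MCM2-2A. Hoxb8 shows the contrast: at T12 it had 5.34% and 5.51% of its T60 level in Ctrl and dPOLE4, but 36.9% and 52.6% in Ctrl MCM2-2A and dPOLE4 MCM2-2A, where the T60 level itself was lower.

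**Figure D2:**
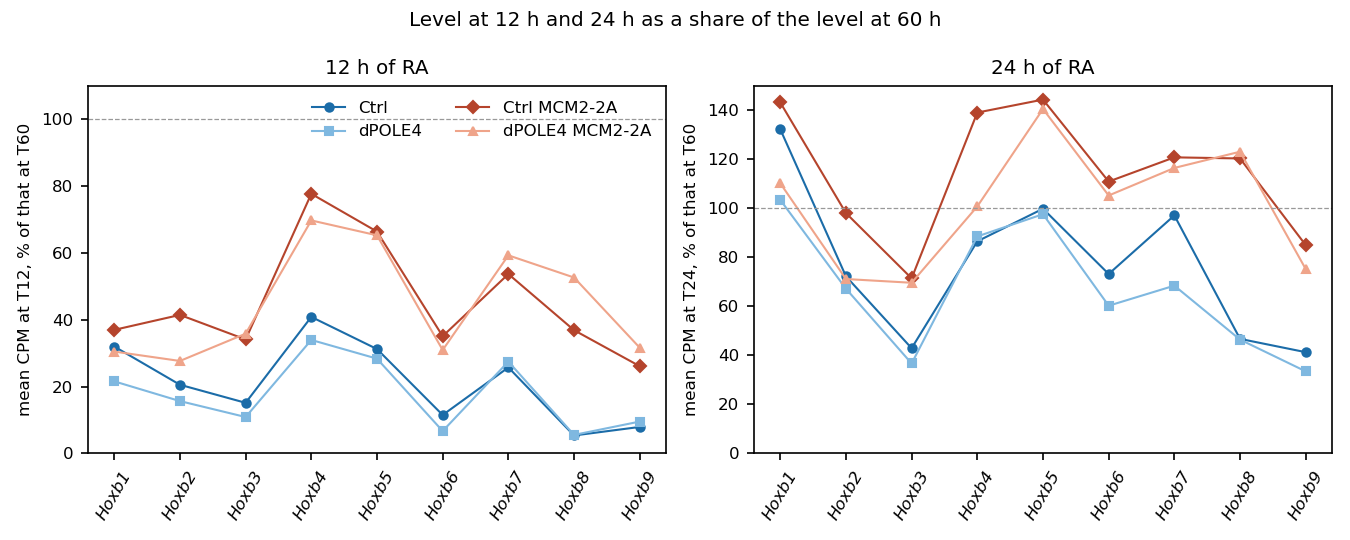
Mean CPM at T12 and at T24 as a percent of the mean at T60, by gene from Hoxb1 to Hoxb9 and by condition. Values above 100% mark genes that were higher at that time than at T60, which at T24 was 1 of 9 genes in Ctrl and 6 of 9 in Ctrl MCM2-2A.

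Per kilobase of exon, so that genes of different length can be set side by side, Hoxb1 was highest in Ctrl at T24 and T60 and Hoxb7 lowest. At T12 in Ctrl the order was Hoxb1 (10.1 CPM per kb), Hoxb4, Hoxb2, Hoxb5, Hoxb9, Hoxb3, Hoxb6, Hoxb8 and Hoxb7 (0.645). The ranges of the 3 libraries overlapped for Hoxb1 with Hoxb4, Hoxb9 with Hoxb3 and Hoxb6 with Hoxb8, and not for the other neighbours in that order. By T60 the order was Hoxb1 (31.7), Hoxb4 (23.9), Hoxb9 (23.0), Hoxb2 (22.3), Hoxb8 (19.5), Hoxb6, Hoxb3, Hoxb5 and Hoxb7 (2.51). There, Hoxb4, Hoxb9, Hoxb2 and Hoxb8 each overlapped the next of them, as did Hoxb6, Hoxb3 and Hoxb5. Between T12 and T60, Hoxb9 and Hoxb8 thus moved up this order and Hoxb5 moved down. In Ctrl MCM2-2A at T12, Hoxb8 came next after Hoxb1, Hoxb4 and Hoxb2, with 3.90 CPM per kb against 1.04 in Ctrl. In dPOLE4 MCM2-2A at T60 the order began with Hoxb1 (17.5), Hoxb2 (9.71), Hoxb9 (8.99) and Hoxb4 (8.65). Without RA, at T0 and 96 h, Hoxb9 was first in all 8 groups and overlapped none of the next.

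POLE4 depletion in the WT background changed no member beyond the threshold. At T12 the log2 fold change of dPOLE4 against Ctrl ran from -0.86 ± 0.22 for Hoxb6 to 0.17 ± 0.29 for Hoxb7, and 7 of 9 were negative. Hoxb1 was at 16.3, 16.2 and 16.4 CPM in dPOLE4, below all 3 Ctrl libraries, with -0.52 ± 0.08 (adjusted p = 0.187). At T24 all 9 values were negative, from -0.46 ± 0.10 for Hoxb8 to -0.10 ± 0.10 for Hoxb4. At T60 they ran from -0.46 ± 0.08 (adjusted p = 0.0124) for Hoxb8 to 0.05 for Hoxb1. Hoxb8 stood at 38.3, 37.3 and 35.8 CPM in dPOLE4 and 59.5, 48.1 and 46.3 CPM in Ctrl at T60, which did not overlap. Beside this, marker sums in Ctrl and dPOLE4 at T60 were 292 to 319 and 260.1 to 268 CPM for neural, 329 to 456 and 267 to 285 CPM for fibroblast and 198 to 249.6 and 156 to 187 CPM for endoderm markers, all apart, and 4.48 to 6.81 and 5.79 to 6.62 CPM for mesoderm markers, and their part was not tested. edgeR called 0 of 9 at each time, as did DESeq2, while 5, 7 and 3 of 9 had an unadjusted p under 0.05. Few features were called at all in these comparisons: 0% at T12, 0% at T24 and 0.193% at T60. The 95% intervals of the log2 fold change show what remains possible: at T24 they were -0.55 to -0.06 for Hoxb1, -0.61 to -0.04 for Hoxb5 and -0.68 to -0.24 for Hoxb8. Summed over the cluster, dPOLE4 had 66.4 ± 6.33 CPM at T12 against 90.1 ± 13.4 in Ctrl, 261 ± 37.6 against 319 ± 18.6 at T24 and 381 ± 9.86 against 419 ± 38.8 at T60.

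In the MCM2-2A background, most members were called lower after POLE4 depletion at T24 and T60, and Hoxb2 alone was at T12. Hoxb1 was at 77.8, 82.2 and 81.5 CPM in Ctrl MCM2-2A and 40.4, 46.9 and 47.2 CPM in dPOLE4 MCM2-2A at T24, a log2 fold change of -0.84 ± 0.07 (adjusted p = 2.71e-05). Hoxb2 was at 54.9, 47.6 and 54.1 CPM in Ctrl MCM2-2A and 23.8, 21.9 and 26.5 CPM in dPOLE4 MCM2-2A, -1.10 ± 0.09 (adjusted p = 1.59e-05). For both hindbrain genes the groups lay far apart. Hoxb3 was at 15.0, 20.2 and 19.9 CPM in Ctrl MCM2-2A and 12, 11.9 and 11.7 CPM in dPOLE4 MCM2-2A, -0.63 ± 0.12 (adjusted p = 0.00616). Hoxb4 was at 36.0, 37.7 and 42.6 CPM in Ctrl MCM2-2A and 23.6, 22.1 and 21.4 CPM in dPOLE4 MCM2-2A, -0.78 ± 0.09 (adjusted p = 0.00015). Hoxb3 was the called gene nearest the limit, and its adjusted p lay above 0.01 without dPOLE4 MCM2-2A replicate 1 (0.023) or 3 (0.0141) or Ctrl MCM2-2A replicate 2 (0.0604) or 3 (0.0262). Hoxb5 was at 18.4, 19.7 and 22.3 CPM in Ctrl MCM2-2A and 9.17, 8.65 and 11.9 CPM in dPOLE4 MCM2-2A, -0.99 ± 0.13 (adjusted p = 0.000483). Hoxb6 was at 13.4, 14.9 and 15.5 CPM in Ctrl MCM2-2A and 7.45, 7.47 and 7.68 CPM in dPOLE4 MCM2-2A, -0.94 ± 0.11 (adjusted p = 0.000214). Here too no depleted library reached a control library. Hoxb7 was at 5.29, 4.40 and 5.85 CPM in Ctrl MCM2-2A and 3.13, 3.27 and 3.08 CPM in dPOLE4 MCM2-2A, -0.69 ± 0.16 (adjusted p = 0.0228), and was not called. Hoxb8 was at 34.0, 31.9 and 34.7 CPM in Ctrl MCM2-2A and 15.7, 18.3 and 16.8 CPM in dPOLE4 MCM2-2A, -0.98 ± 0.09 (adjusted p = 2.71e-05). Hoxb9 was at 28.7, 30.0 and 31.7 CPM in Ctrl MCM2-2A and 17.8, 15.7 and 18.7 CPM in dPOLE4 MCM2-2A, -0.78 ± 0.09 (adjusted p = 0.000217).

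At T24 the groups did not overlap for any of the 9 genes and 8 of 9 were called lower, where 0.504% of all features were. The median log2 fold change of the 9 was -0.84, against 0.003 over all features tested. The 45 tested genes that start within 1 Mb of the cluster had a median of -0.04, with 0 called lower and 1 called higher by edgeR, and chromosome 11 without the cluster had 0.00. Both groups share the clone, so that its shift of chromosome 11 is the same on both sides. At T12, 1 of 9 was called lower, Hoxb2 at -1.22 ± 0.13 (adjusted p = 0.000956), with 22.6, 18.9 and 24.8 CPM in Ctrl MCM2-2A and 9.45, 7.83 and 10.8 CPM in dPOLE4 MCM2-2A. All 9 values were negative at that time and 7 did not overlap, among them Hoxb1 (-0.75 ± 0.13, adjusted p = 0.0118), Hoxb5 (-1.0 ± 0.18, adjusted p = 0.0118) and Hoxb6 (-1.02 ± 0.23, adjusted p = 0.0337). DESeq2 called 4 of 9 at T12, these 3 and Hoxb2. Without dPOLE4 MCM2-2A T12 replicate 3, edgeR also called Hoxb5 (-1.19), and without Ctrl MCM2-2A T12 replicate 2 it also called Hoxb1 (-0.85) and Hoxb4 (-0.60). The share of all features called lower was 0.188% at T12. How many of all features did not overlap was not counted at either time.

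At T60 the depleted MCM2-2A cells were still lower, with 6 of 9 called where 1.19% of all features were called lower. Hoxb8 was at 32.8, 24.0 and 26.8 CPM in Ctrl MCM2-2A and 16.9, 12 and 12.3 CPM in dPOLE4 MCM2-2A, -1.02 ± 0.15 (adjusted p = 0.00198). Hoxb5 was at 14.9, 13.0 and 14.1 CPM in Ctrl MCM2-2A and 9.01, 6.01 and 6.15 CPM in dPOLE4 MCM2-2A, -0.98 ± 0.15 (adjusted p = 0.00255). Hoxb6 was at 14.6, 11.8 and 13.1 CPM in Ctrl MCM2-2A and 7.71, 6.54 and 7.25 CPM in dPOLE4 MCM2-2A, -0.87 ± 0.12 (adjusted p = 0.00164). No depleted library reached a control library for any of the 3 genes. Hoxb2 changed by -0.65 ± 0.10 (adjusted p = 0.00297), Hoxb9 by -0.62 ± 0.09 (adjusted p = 0.00163) and Hoxb3 by -0.59 ± 0.11 (adjusted p = 0.00736). Hoxb1 (-0.46 ± 0.12, adjusted p = 0.0279), Hoxb4 (-0.33 ± 0.10, adjusted p = 0.0688) and Hoxb7 (-0.65 ± 0.19, adjusted p = 0.0522) were not called. For the other 6 genes the groups did not overlap either. No member was called without dPOLE4 MCM2-2A T60 replicate 2 (median log2 fold change -0.61) or without Ctrl MCM2-2A T60 replicate 3 (-0.63), where 148 and 84 features were called in all. Leaving out any of the other 4 libraries left 4 or 5 called: Hoxb2 was lost without Ctrl MCM2-2A replicate 1 (-0.56), Hoxb9 without dPOLE4 MCM2-2A replicate 1 (-0.58), and Hoxb3 without dPOLE4 MCM2-2A replicate 3 (-0.55) or Ctrl MCM2-2A replicate 1 (-0.59) or 2 (-0.64). The median of the 9 at T60 was -0.65, that of the 48 neighbours 0.06 and that of chromosome 11 0.02. The cluster sum was 109 ± 12.2 CPM in Ctrl MCM2-2A and 66.4 ± 6.04 CPM in dPOLE4 MCM2-2A at T12, 293 ± 13.1 and 158 ± 6.19 at T24, and 258 ± 23.9 and 168 ± 18.1 at T60. Stem cell markers summed higher in the depleted MCM2-2A cells at T60, as given above, with 2 of 8 called higher, and at T24 summed to 1112 to 1259 CPM in Ctrl MCM2-2A and 1197 to 1357 CPM in dPOLE4 MCM2-2A. At T60 the 5 fibroblast markers summed to 139 to 162 and 60.2 to 73.7 CPM, the 6 neural markers to 201 to 233 and 153 to 167 CPM, the 6 endoderm markers to 341 to 378 and 263 to 291 CPM and the 5 mesoderm markers to 10.1 to 12.2 and 11.2 to 14.7 CPM. At T24 the same lists gave 28.7 to 33.2 and 23.3 to 25.1, 41.9 to 45.4 and 37.8 to 49.6, 63.5 to 66.5 and 64.0 to 65.3, and 13.1 to 13.9 and 15.0 to 16.8 CPM. Ranges were apart for fibroblast and mesoderm markers at T24 and for fibroblast, neural and endoderm markers at T60. No marker was at 0 in all libraries of either group at T60, and 1 of the 5 fibroblast markers was at T24. The part of such cells in the Hoxb levels was not tested.

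**Figure D3:**
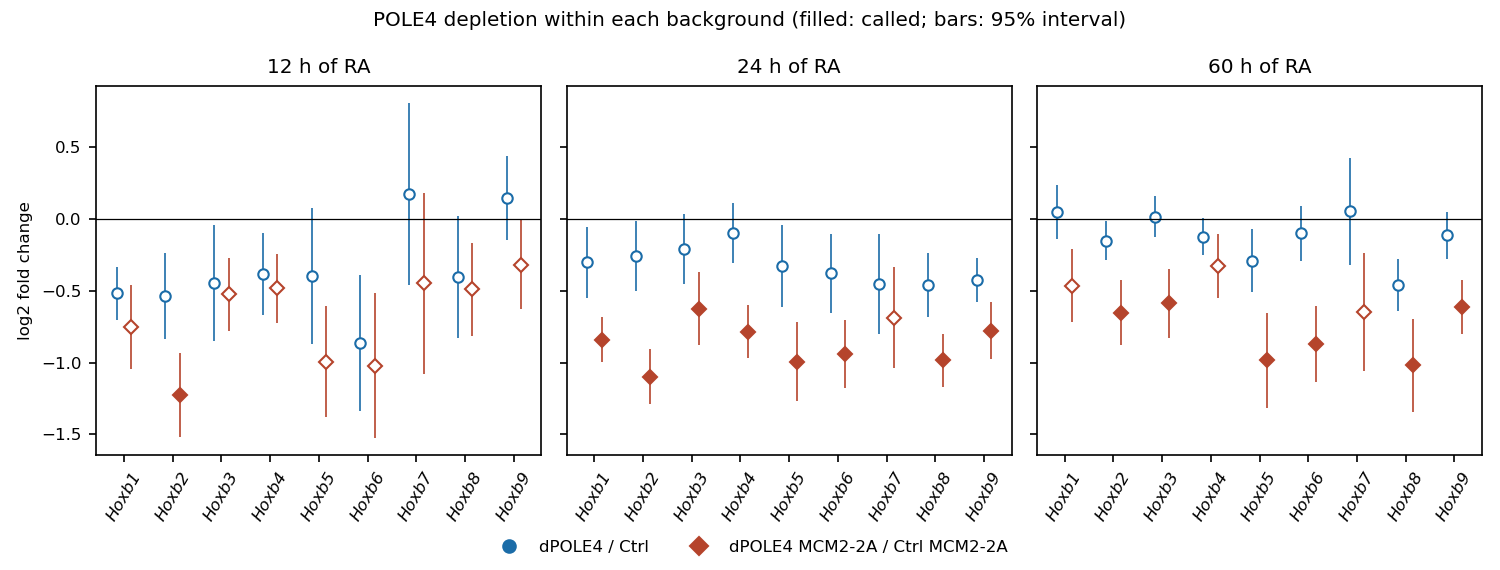
Log2 fold change of depleted against control cells for each gene at T12, T24 and T60, in the WT background (dPOLE4 / Ctrl) and in MCM2-2A (dPOLE4 MCM2-2A / Ctrl MCM2-2A). Bars are 95% intervals and filled symbols mark called genes: none in WT, and 1, 8 and 6 of 9 in MCM2-2A.

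Whether depletion acted more strongly in MCM2-2A than in WT was tested on the difference itself, with the 4 groups of a time point in 1 fit. The difference was negative for all 9 genes at T12, T24 and T60, with medians of -0.23, -0.55 and -0.55. At T24 it was -0.85 ± 0.16 (adjusted p = 0.052) for Hoxb2, -0.69 ± 0.14 (adjusted p = 0.0721) for Hoxb4 and -0.67 ± 0.20 (adjusted p = 0.279) for Hoxb5. At T60 it was -0.76 ± 0.15 (adjusted p = 0.0266) for Hoxb6, -0.59 ± 0.13 (adjusted p = 0.0444) for Hoxb3 and -0.68 ± 0.19 (adjusted p = 0.139) for Hoxb5. None of these passed the threshold: edgeR called 0 of 9 at each time, with an unadjusted p under 0.05 in 2, 8 and 8 of 9, while DESeq2 called 0, 2 and 2. By DESeq2 those were Hoxb2 and Hoxb4 at T24 and Hoxb3 and Hoxb6 at T60. Over all features, 0.0159%, 0.0351% and 0.1% were called for the difference.

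The 8 Hoxa genes of the comparison list, paralogs of the members on chromosome 6, were set beside them. In Ctrl, 7 of the 7 tested were called higher from T0 to T12 and 6 of 8 from T12 to T24, with 1 higher and 1 lower from T24 to T60. At these steps 7.24%, 3.75% and 19.8% of all features were called higher. For dPOLE4 MCM2-2A against Ctrl MCM2-2A, edgeR called 0 of 8 Hoxa genes at T24 and at T60, as did DESeq2, while 4 had an unadjusted p under 0.05 at each time. Their median log2 fold changes were -0.22 and -0.23, where those of the 9 Hoxb genes were -0.84 and -0.65. A test of the difference between the clusters was not run.

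**Figure D4:**
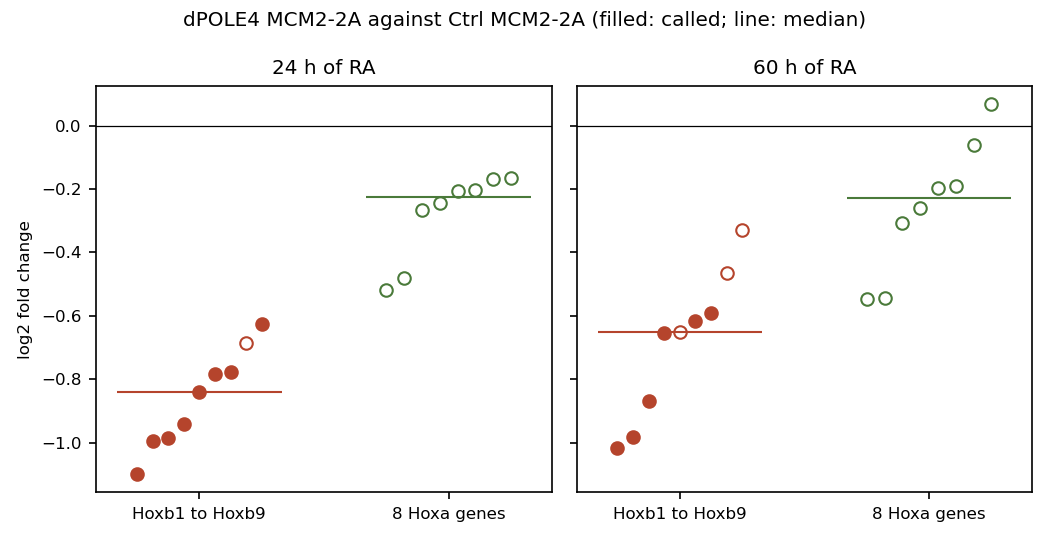
Log2 fold change of dPOLE4 MCM2-2A against Ctrl MCM2-2A for the 9 Hoxb and the 8 Hoxa genes at T24 and T60. Each point is 1 gene, in order of its value, filled where called, and the line is the median of the cluster; the Hoxb medians are -0.84 and -0.65 and the Hoxa medians -0.22 and -0.23.

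Between the lines, Ctrl MCM2-2A was higher than Ctrl for posterior genes at T12 and lower for most of the cluster at T60, though relative to the median of chromosome 11 none was called lower at T60. At T12 the posterior genes were higher in Ctrl MCM2-2A: Hoxb8 by 1.92 ± 0.18 (adjusted p = 1.98e-05), Hoxb7 by 1.20 ± 0.29 (adjusted p = 0.00845), Hoxb9 by 0.98 ± 0.14 (adjusted p = 0.000277) and Hoxb6 by 0.94 ± 0.20 (adjusted p = 0.0043). The anterior genes Hoxb1 (-0.16) and Hoxb4 (-0.19) and also Hoxb2 (0.49), Hoxb3 (0.38) and Hoxb5 (0.24) were not called. Thus 4 of 9 were called higher, where 6.93% of all features were. DESeq2 called 3 of 9, without Hoxb7 (adjusted p = 0.0107). Hoxb8 and Hoxb9 were called with any library left out. Hoxb6 and Hoxb7 were both lost without Ctrl MCM2-2A T12 replicate 1 (0.96 and 1.24) or 3 (0.80 and 0.92), or without Ctrl T12 replicate 1 (0.81 and 1.12) or 3 (0.92 and 1.22). Without Ctrl T12 replicate 2, Hoxb7 was lost (1.24) and Hoxb2 gained (0.67). At T24 edgeR and DESeq2 called 0 of 9, 6 had an unadjusted p under 0.05, and values ran from -0.44 ± 0.07 (adjusted p = 7.58e-05) for Hoxb4 to 0.51 ± 0.07 (adjusted p = 6.8e-06) for Hoxb8, with 17.3% of all features called. Without Ctrl MCM2-2A T24 replicate 2, Hoxb7 was called (0.59).

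At T60, 6 of 9 were called lower in Ctrl MCM2-2A, where 7.93% of all features were. Hoxb4 was at 63.4, 60.9 and 59.6 CPM in Ctrl and 29.7, 26.2 and 27.9 CPM in Ctrl MCM2-2A, -1.13 ± 0.08 (adjusted p = 3.66e-08). Hoxb5 changed by -0.88 ± 0.10 (adjusted p = 6.13e-06), Hoxb8 by -0.88 ± 0.11 (adjusted p = 2.19e-05) and Hoxb3 by -0.79 ± 0.08 (adjusted p = 1.62e-06). Hoxb9 changed by -0.73 ± 0.08 (adjusted p = 5.2e-06) and Hoxb6 by -0.69 ± 0.11 (adjusted p = 8.94e-05). Hoxb1 (-0.38 ± 0.11), Hoxb2 (-0.54 ± 0.08) and Hoxb7 (0.15 ± 0.16) were not called, though Hoxb2 was called without Ctrl MCM2-2A T60 replicate 1 (-0.61). Cell type markers differed between the lines as well. At T60 the sums in Ctrl and Ctrl MCM2-2A were 329 to 456 and 139 to 162 CPM for fibroblast, 292 to 319 and 201 to 233 CPM for neural, 198 to 249.6 and 341 to 378 CPM for endoderm, 4.48 to 6.81 and 10.1 to 12.2 CPM for mesoderm markers, and 184 to 211 and 417 to 533 CPM for stem cell markers. At T12 they were 38.4 to 52.2 and 17.0 to 24.3, 91.9 to 115 and 45.0 to 48.1, 21.7 to 27.5 and 44.9 to 49.4, 22.1 to 27.4 and 14.0 to 15.9, and 1814 to 2019.9 and 1709 to 1853 CPM in that order, apart for all but the stem cell markers. Their part in the Hoxb levels was not tested. The Hoxb values also carry the shift of the chromosome. Chromosome 11 without the cluster had a median of -0.51 at T12, -0.50 at T24 and -0.55 at T60, and the neighbours within 1 Mb had -0.60, -0.55 and -0.51. At T60, 36 of 47 neighbours were lower and 18 were called lower. Relative to the chromosome's median, 7 of 9 members were called higher at T12, all but Hoxb1 (0.35) and Hoxb4 (0.32), with Hoxb8 at 2.43. At T24, 3 were called higher on that scale, Hoxb7 (0.96), Hoxb8 (1.00) and Hoxb9 (0.82). At T60 Hoxb7 was called higher (0.70) and none was called lower, while 6 of 9 values stayed negative, from -0.15 for Hoxb6 to -0.58 for Hoxb4, which was just inside the limit of size (adjusted p = 6.04e-06). On that scale 37%, 37.5% and 43.2% of all features were called in either direction, since genes of other chromosomes are shifted by it.

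**Figure D5:**
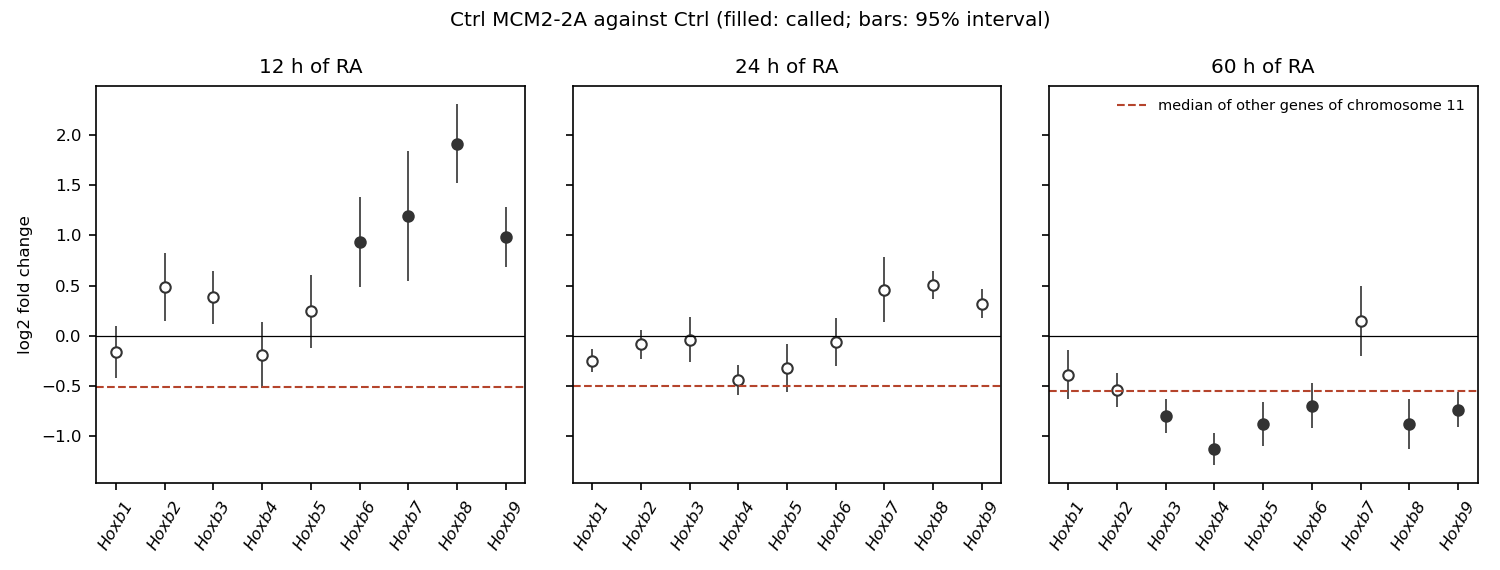
Log2 fold change of Ctrl MCM2-2A against Ctrl for each of the 9 genes at T12, T24 and T60. Bars are 95% intervals, filled symbols mark called genes, and the dashed line is the median of chromosome 11 without the cluster (-0.51, -0.50 and -0.55). All 9 genes lie above that line at T12.

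A constant shift of the chromosome drops out when the change under RA is compared between the lines. The change from T0 to T12 differed for 0 of 9 members by edgeR and by DESeq2, with 3 of 9 at an unadjusted p under 0.05. The change from T0 to T24 also differed for 0 of 9 by both tools, with 4 at an unadjusted p under 0.05. Apart from Hoxb4 and Hoxb9, the members had only 0 to 9 counts over the Ctrl group at T0. For those members these tests could hardly detect a difference. The change from T0 to T60 was smaller in Ctrl MCM2-2A for 2 of 9 members, Hoxb4 (-1.74 ± 0.37, adjusted p = 0.00229) and Hoxb9 (-0.80 ± 0.20, adjusted p = 0.008). Those are the 2 members with the most T0 counts. Hoxb4 had 5, 13 and 5 counts in Ctrl and 20, 7 and 21 in Ctrl MCM2-2A at T0. All 9 values were negative at T60, where chromosome 11 without the cluster had a median of -0.09. DESeq2 called 3 of 9, adding Hoxb5, which had no count in Ctrl at T0. No member was called without Ctrl MCM2-2A T0 replicate 1 (Hoxb4 -1.45, Hoxb9 -0.60), Ctrl T0 replicate 1 (-1.54 and -0.81) or Ctrl T0 replicate 3 (-1.46 and -0.89). Hoxb9 alone was lost without Ctrl T0 replicate 2 (-0.71), Ctrl T60 replicate 1 (-0.68) or 2 (-0.77), or Ctrl MCM2-2A T60 replicate 1 (-0.78), 2 (-0.71) or 3 (-0.77), and Hoxb5 was gained without Ctrl MCM2-2A T0 replicate 2. Shares called over all features were 0.303% and 2.18% in either direction at T12 and T24, and 4.4% called lower at T60.

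The RA pathway around the cluster was followed with 16 genes of RA reception, metabolism and transport, 8 HOX cofactor genes and 5 regulators of Hox genes. From T0 to T12 in Ctrl, 8 higher and 0 lower of 15 tested genes of the first list were called, led by the RA-degrading enzyme genes Cyp26b1 (5.97) and Cyp26a1 (5.89), the retinol importer gene Stra6 (5.18) and the receptor gene Rarb (4.86), all log2 fold changes. Cyp26b1 and Rarb were almost absent in Ctrl at T0, with means of 0.202 and 0.396 CPM, against 13.1 and 11.9 CPM at T12. They entered this comparison through the T12 libraries, so their passing is no independent result and their folds rest on few T0 reads. Stra6 stood at 0.858 CPM at T0, and Cyp26a1 was higher than that. Of the cofactors 4 higher and 0 lower of 8 were called, and of the regulators 2 higher and 0 lower of 3. From T12 to T24 the counts were 6 higher and 1 lower of 16, 3 higher and 0 lower of 8 and 1 higher and 0 lower of 4, among them the RA-binding protein gene Crabp2 (2.02) and the cofactor gene Meis1 (1.58). From T24 to T60 they were 7 higher and 1 lower of 15, 4 higher and 0 lower of 8 and 1 higher and 3 lower of 4. Over all features in Ctrl, 7.24%, 3.75% and 19.8% were called higher from T0 to T12, T12 to T24 and T24 to T60. The caudal genes Cdx4 (-4.59), Cdx2 (-2.64) and Cdx1 (-2.40), which activate posterior Hox genes, fell from T24 to T60, while Cyp26b1 rose (3.49). Cdx4 did not pass the filter for dPOLE4 against Ctrl at T60, so it entered this step only through the T24 libraries.

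In dPOLE4 MCM2-2A against Ctrl MCM2-2A, 0 higher and 1 lower of 16, 0 higher and 0 lower of 15 and 0 higher and 2 lower of 15 tested genes of reception, metabolism and transport were called at T12, T24 and T60. At T24, where edgeR and DESeq2 called 0, 9 of 15 had an unadjusted p under 0.05 and the median log2 fold change of that list was -0.18, against -0.84 for the Hoxb genes. Over all features, 0.188%, 0.504% and 1.19% were called lower at T12, T24 and T60. The cofactor gene Meis2 was called lower at all 3 times (-0.68, -0.93 and -0.97). It encodes a partner that binds DNA together with HOX proteins. Cyp26a1 was lower at T12 (-0.62), Crabp2 was lower at T60 (-0.91) and Cdx1 higher at T60 (0.65). In the WT background, 1 of 14 tested genes of that list was called at T60, Crabp1 (-1.16), an RA-binding protein gene. At T12 and T24 in WT, edgeR and DESeq2 called 0 genes of the 3 lists, with 4, 1 and 0 at an unadjusted p under 0.05 at T12 and 2, 5 and 2 at T24. The shares of all features called in WT were 0%, 0% and 0.193% at T12, T24 and T60. In Ctrl MCM2-2A against Ctrl, 1 higher and 2 lower of 4 tested regulators were called at T12, with Cdx4 at -4.15, and 2 higher and 0 lower of 4 at T60, with Cdx1 at 2.14. Cdx4 did not pass the filter in the comparisons within the MCM2-2A line. It thus entered the T12 comparison only through the Ctrl libraries. The first list had 5 higher and 1 lower of 16 called at T12, with the receptor gene Rxrg at 2.32 and Cyp26b1 at 1.42, and 2 higher and 4 lower of 16 at T60, with Aldh1a3, which makes RA, at 2.00 and Rarg at 1.46. Rxrg was low at T12, with 0.65 CPM in Ctrl and 3.30 CPM in Ctrl MCM2-2A. Aldh1a3 was barely detected at T60, with 0.248 and 0.945 CPM, and passed the filter only through the MCM2-2A libraries. Rarg stood at 33.2 and 91.3 CPM at T60. Among the cofactors, which include Meis1 on chromosome 11 (-1.57 at T60), the counts were 0 higher and 3 lower of 8 at T12 and 0 higher and 4 lower of 8 at T60. Between these lines, 6.93% of all features were called higher at T12 and 7.93% lower at T60.

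Over the 16 group means of the RA experiment, among 17568 genes that reached 1 CPM in a group, genes most like Hoxb1 by Pearson r of log2(CPM + 1) included Hoxb2 (0.9919), Ski (0.9917), Hotairm1 (0.9906) and Hoxa5 (0.9901). Nearest to Hoxb4 were Nrip1 (0.99), Arg1 (0.9892), Hoxb5 (0.9888), Hoxa3 (0.9878) and Zmiz1 (0.9878). Those nearest to Hoxb9 were Serpinf1 (0.9919), Hmgn3 (0.9858), Zfp426 (0.9814), Gm15050 (0.9801) and 5730596B20Rik (0.9801). Hoxa3, Hoxa5 and the noncoding genes Hotairm1, Gm15050 and 5730596B20Rik lie on chromosome 6, as the Hoxa cluster does. Within the Hoxb cluster, r ran from 0.85 between Hoxb4 and Hoxb9 to 0.99 between Hoxb1 and Hoxb2. The groups share RA times and libraries, so that high values are common among RA-responsive genes and are given as a description.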

How the data were processed

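RNA was sequenced from 60 libraries of ribosomal RNA-depleted total RNA in 20 groups of 3. According to the methods of the study and the submitters' processing notes, the authors trimmed reads with cutadapt (4.2), aligned them to mm10 with STAR keeping multi-mapping reads, and counted genes and repeats with TEcount, GENCODE M25 and a repeat annotation. The deposited values are raw counts, 55487 gene rows and 1146 repeat rows. Counting multi-mapping reads can share reads between similar genes, and the strand setting of the counting was not given in the sources used here. The replicates are separate samples in the labels, so that p-values measure the spread between such samples. No pair of libraries held identical values.

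From these counts, each comparison was fitted on its own groups over all gene and repeat rows with edgeR 4.0.16 (R 4.3.3, filterByExpr with a minimum count of 10 and a total of 15, TMM scaling with factors of 0.911 to 1.07 within an experiment, quasi-likelihood F test, Benjamini-Hochberg adjustment). A feature was called with an adjusted p below 0.01 and a log2 fold change above 0.58 in size, the limits the authors used with DESeq2. Differences of effects used 4 groups. The floor of 3 counts covers counting error only, and intervals of log2 fold changes come from the fits. The alternatives were DESeq2 1.42.0, its size factors in edgeR, no filter, a replicate block, each library left out, 4 groups in 1 fit, and an offset equal to the chromosome 11 median. The steps were tested on simulated data. The members and lists were chosen with earlier results of these data known. All 9 members are named, with at most 4 called genes of the RA lists per comparison, those with the largest change, and the 5 genes most like Hoxb1, Hoxb4 and Hoxb9. Some genes that this rule picks are not reported here. Replicate numbers come from the labels. Same-numbered libraries deviated together (every r over 0.1) in 6 of 27 comparisons of 2 groups: T24 against T12 in Ctrl, depletion at T0 and 96 h in both backgrounds, and Ctrl MCM2-2A against Ctrl at 96 h. Gene coordinates are those of a GENCODE annotation of the same build (GRCm38, vM21), and promoter sequences are RefSeq's (GRCm38.p6).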

Additional observations from a re-analysis of the deposited data

Results flagged for a closer look

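The change from T0 to T60 was smaller in Ctrl MCM2-2A than in Ctrl for Hoxb4, with a difference in log2 fold change of -1.74 ± 0.37 (n = 3 libraries in each of 4 groups, edgeR adjusted p = 0.00229). It was drawn out because the test of the difference between the lines called it. For Hoxb9 the same test gave -0.80 ± 0.20 (adjusted p = 0.008). Leaving out single libraries gave differences from -2.38 to -1.45 for Hoxb4 and from -0.93 to -0.60 for Hoxb9, all with the same sign. The call itself was kept in 9 of 12 such fits for Hoxb4 and in 3 of 12 for Hoxb9. Hoxb4 had only 5, 13 and 5 counts in the Ctrl libraries at T0.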

How the results depend on the processing

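Over 225 results, alternatives other than leaving out a library kept the direction and the side of the threshold in 968 of 1020 values, with 9 below it, 31 newly past it and 12 of the opposite sign, and leaving out a library did so in 1424 of 1511, with 50 below, 13 newly past and 24 of the opposite sign. Before RA, at most 2 members had enough counts to be tested between groups, so that differences of the others were not detectable at this depth. For dPOLE4 MCM2-2A against Ctrl MCM2-2A at T12, 1 of 9 members was called, against 4 with DESeq2, 4 with no filter and 2 with 4 groups in the fit. The difference between backgrounds called 0 members at T24 and T60, but DESeq2 called 2 and 2, no filter 3 and 3, and a replicate block 2 at T24. With the replicate block, 2 members were called for Ctrl MCM2-2A against Ctrl at T12, without Hoxb6 and Hoxb7, where replicate numbers did not pair the libraries, and Hoxb9 at 96 h turned to 0.019. In the 6 comparisons where the numbers paired the libraries the block changed no call. Relative to the chromosome 11 median, Ctrl MCM2-2A against Ctrl called 7 members at T12, 3 at T24 and 1 at T60, and the sign turned at T12 for Hoxb1 (0.35) and Hoxb4 (0.32), at T24 for Hoxb1 (0.25), Hoxb2 (0.41), Hoxb3 (0.46), Hoxb4 (0.060), Hoxb5 (0.18) and Hoxb6 (0.44), at T60 for Hoxb1 (0.16) and Hoxb2 (0.011), and at 96 h for Hoxb9 (0.49), which follows from the offset. The cause of the other changes was not tested.

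Leaving out 1 library at a time, the members called ranged from 0 to 1 for T60 against T24 in Ctrl MCM2-2A, 0 to 1 for that step in dPOLE4 MCM2-2A, 1 to 3 and 0 to 5 for dPOLE4 MCM2-2A against Ctrl MCM2-2A at T12 and T60, 2 to 4 and 0 to 1 for Ctrl MCM2-2A against Ctrl at T12 and T24, and 0 to 3 for the difference in change from T0 to T60. Log2 fold changes that turned sign ranged, for T60 against T24, from -0.13 to 0.12 for Hoxb5 in Ctrl, -0.19 to 0.094 for Hoxb1 and -0.042 to 0.14 for Hoxb5 in dPOLE4, -0.039 to 0.10 for Hoxb2 in Ctrl MCM2-2A and -0.10 to 0.069 for Hoxb4 in dPOLE4 MCM2-2A. For dPOLE4 against Ctrl they ranged from -0.0025 to 0.17 for Hoxb9 at T0, -0.13 to 0.35 for Hoxb7 at T12, and -0.049 to 0.20 for Hoxb1, -0.017 to 0.040 for Hoxb3 and -0.0076 to 0.12 for Hoxb7 at T60. For Ctrl MCM2-2A against Ctrl they ranged from -0.15 to 0.18 for Hoxb9 at T0, -0.13 to 0.087 for Hoxb3 and -0.19 to 0.020 for Hoxb6 at T24, and -0.15 to 0.15 for Hoxb9 at 96 h. None of these sign changes concerned a called member.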

Other observations

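Hoxb5os, an antisense gene that shares 100 exon bases (3.59%) with Hoxb5, was not detected in Ctrl at T0 and stood at 1.59 ± 0.483 CPM at T24 and 35.6 ± 8.71 CPM at T60 (SD, n = 3). At T60 it stood at 22.3 ± 1.68 CPM in dPOLE4, 9.58 ± 1.27 CPM in Ctrl MCM2-2A and 4.71 ± 0.478 CPM in dPOLE4 MCM2-2A. Hoxb5 itself stood at 25.6 ± 3.10, 20.7 ± 2.29, 14.0 ± 0.941 and 7.06 ± 1.69 CPM in the same 4 groups. These antisense levels were chosen after their values were seen and carry no test.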
